A study of Mus musculus with 29 samples.

Results

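The uterus of mice exposed to genistein as newborns was followed from gestation day 1.5 (GD1.5) to GD3.5 on 7 of the 29 arrays of the study. They were 3 arrays of genistein-exposed mice (GEN) at GD3.5, numbered 1, 3 and 4, and 4 arrays of GEN mice at GD1.5, numbered 1 to 4, chosen by the exposure and day in their titles. GEN pups of the CD-1 stock had received 50 mg/kg genistein, an isoflavone of soy that binds estrogen receptors, daily from postnatal day 1 to postnatal day 5. Mice dosed with corn oil over the same days (CON) gave 3 arrays at GD3.5 and 3 at GD1.5, which are set beside the GEN change of a gene. All samples were whole uterus of pregnant females, so epithelium, stroma, muscle and immune cells were measured together. The labels give no age at mating and do not say whether each array holds the RNA of its own animal or of pooled animals, so p-values measure the spread between samples.

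In the mouse the estrogen that surrounds ovulation makes the lining epithelium of the uterus divide and secrete, and mating brings seminal fluid and a wave of neutrophils into the lumen. Over the following days the corpora lutea raise progesterone, the epithelium turns to a receptive, differentiated state, and hedgehog protein that progesterone receptor induces in epithelium signals to the stroma, which begins to divide. Glands add secreted factors, among them LIF, that the uterus needs when embryos attach after GD3.5. The comparison asks which of these changes the genistein-exposed uterus went through.

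RNA was labelled with Cy3 and hybridised to Agilent arrays with 41174 different probes for 27670 gene names. Levels below are log2 intensities relative to the 75th percentile of the same array, so a level of 0 is that percentile, and a level of one probe cannot be set against that of another. On the 7 arrays that percentile was 1490 to 1840 intensity units, and 71.3 to 76.7% of spots were well above background. Each of slides 1 to 3, read on the same scan date, held arrays of both GEN days, so the change of a gene can also be read within 3 slides. CON array 3 at GD3.5 was read on another scan date, on slide 4, which held no other array of these days. Without that array 160 genes changed in CON in place of 523. Markers of the organ were present: all 12 genes of a uterine identity list were measured, among them Hoxa10, Hoxa11, Hand2, Esr1 and Pgr, and 0 of them passed the limma test, 3 at an unadjusted p under 0.05 (median log2 change 0.10). Of 14 ovary and oviduct genes 10 were measured, and their summed linear level was 10.1 to 17.8 times the 75th percentile at GD3.5, against 3.93 to 5.34 times at GD1.5. The member with the largest change was Ovgp1, the oviductal glycoprotein, at a log2 change of 2.89 (SE 0.88, limma adjusted p = 0.0587), short of the threshold, and the part of such tissue in other rises was not tested.

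Of 20392 genes tested with limma, 1039 (5.1%) changed at a Benjamini-Hochberg adjusted p under 0.05, 529 upwards (2.59%) and 510 downwards (2.5%). At an unadjusted p under 0.05 there were 3795 (18.6%). The median change over all genes tested was 0.01 and the median standard error 0.22. A change of at least 2-fold was found in 271 of the higher genes (1.33%) and 335 of the lower ones (1.64%). The levels of the days did not overlap for 998 of the 1039 genes, while they did not overlap for 28.4% of all genes tested. Within the slides, 1035 of the 1039 kept 1 sign on all 3. The slides hold the same arrays that gave the calls, so that count is a description and no separate support. Of the calls, 142 have only a clone, accession or predicted name, and 28 have a further probe of opposite sign.

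The number of calls rested on single arrays. Without GD3.5 array 3 there were 381 calls and without GD3.5 array 4 there were 356. Leaving out GD3.5 array 1 gave 744. Among the GD1.5 arrays, 574 calls were left without array 1, 610 without array 2, 875 without array 3 and 1229 without array 4. Called in all 7 of these fits were 303 genes, 131 higher and 172 lower. Where a gene named below lost its call in such a fit, the arrays and the highest adjusted p over the 7 fits are given.

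Other fits also ended calls of genes named below. With slide as a fixed block, Ano2, Ceacam10, Lrp2, Ptgs1, Sfrp4, Pgrmc2, Fgfr4, Insig1, Oas2, Oas1a, Cxcr2 and Prf1 were no longer called, at limma adjusted p of 0.0524 to 0.0885, while their changes kept their direction. With normexp background correction in place of the processed signal, calls were lost for Gzmf, Gzme, Mmd2, Cyp2j11, Grid2ip, Il1f6, Ptch1, Pgrmc2, Nrg1, Lifr, Egfr, Fgfr4, Lgr5, Wnt7b, Myc, Insig1, Mvd, Ccl28, Cxcl1, Oas2, Oas1a, Tpsab1, Itgam, Serpinb5, Cdh5, Emcn and Kdr. That normexp fit put the 5th percentile of spot intensity at 154 on GD3.5 array 1, against 59.3 to 61.9 on the other GEN arrays of these days. A normexp refit without spots of high local background, chosen after seeing the data, gave 59.8 there. In the refit only Gzmf and Tpsab1 of the genes just listed lost their calls. From the compared arrays alone calls were lost for Olah, Gzmf, Il13ra2, Ptch1, Sfrp4, Gli1, Pgrmc2, Egfr, Myc, Insig1, Mmp11, Cxcl5, Cxcl1, Oas2, Oas1a, Cxcr2, Msr1, Fcgr1 and Emcn, although that fit called more genes in all.

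The largest falls were in secreted products and surface proteins of epithelium. Prap1, a proline-rich secreted protein of the uterine and intestinal lining, stood at -1.15, -1.17 and -1.83 on the GD3.5 arrays, against 6.96, 6.47, 6.10 and 7.61 on the GD1.5 arrays. All GD3.5 arrays lay far below all GD1.5 arrays. It fell by 8.17 on the log2 scale (SE 0.56, limma adjusted p = 9.08e-09), or 288-fold lower, with changes of -9.11 to -7.28 within slides. Its probe lies at chr7:136510833-136510892 of build mm7. Clca1, a secreted regulator of chloride channels in mucous epithelium, had levels of -0.28, -0.31 and -0.48 at GD3.5, against 7.41, 7.44, 6.95 and 6.01 at GD1.5. The groups were again wide apart, a log2 change of -7.31 (SE 1.56, limma adjusted p = 0.00644). Both were also lower at GD3.5 in CON uteri (log2 -6.22 for Prap1 and -6.97 for Clca1).

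Serpinb11, a serpin of the ovalbumin clade, was at -7.99, -6.28 and -6.40 on the GD3.5 arrays, against 0.23, 0.84, 0.58 and 0.99 on the GD1.5 arrays. The GD1.5 arrays were close together, and 2 of the 3 GD3.5 arrays were still well above background. Its change of -7.54 (SE 0.80, limma adjusted p = 8.08e-06) compares with one of -2.90 in CON (adjusted p = 0.076). The difference between the exposures was -4.65 (SE 1.18, unadjusted p = 0.000634, adjusted p = 0.9998), so it did not pass the test over all genes. Sftpd, surfactant protein D, a collectin that binds microbes, fell by 7.15 (SE 0.76, limma adjusted p = 8.08e-06). Its levels were -2.87, -3.73 and -5.13 at GD3.5, against 3.87, 2.65, 2.76 and 3.67 at GD1.5. The GD3.5 arrays were spread over more than 2 log2 units and none came near GD1.5.

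Among the other large falls were defence proteins and proteins of the epithelial surface. Cfi, the protease that inactivates complement C3b, fell by 6.76, and Dmbt1, a mucosal scavenger receptor, by 6.59 (limma adjusted p = 1.1e-05 and 0.000727). Gabrp, the pi subunit of the GABA-A receptor, fell by 6.53 (limma adjusted p = 7.08e-06). Aoc1, the diamine oxidase that breaks down histamine, fell by 5.43, and Upk3bl, a uroplakin-like membrane protein, fell by 5.25 (limma adjusted p = 0.00269 and 1.37e-05). Sprr2d, a small proline-rich protein that estrogen induces in uterine epithelium, fell by 5.74 (SE 1.08, limma adjusted p = 0.00232). The Sprr2 genes are near copies of each other, so its probe may read several of them. All 12 of the largest falls kept their call in each leave-out fit, and the GD3.5 arrays of each lay below all its GD1.5 arrays.

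**Figure D1:**
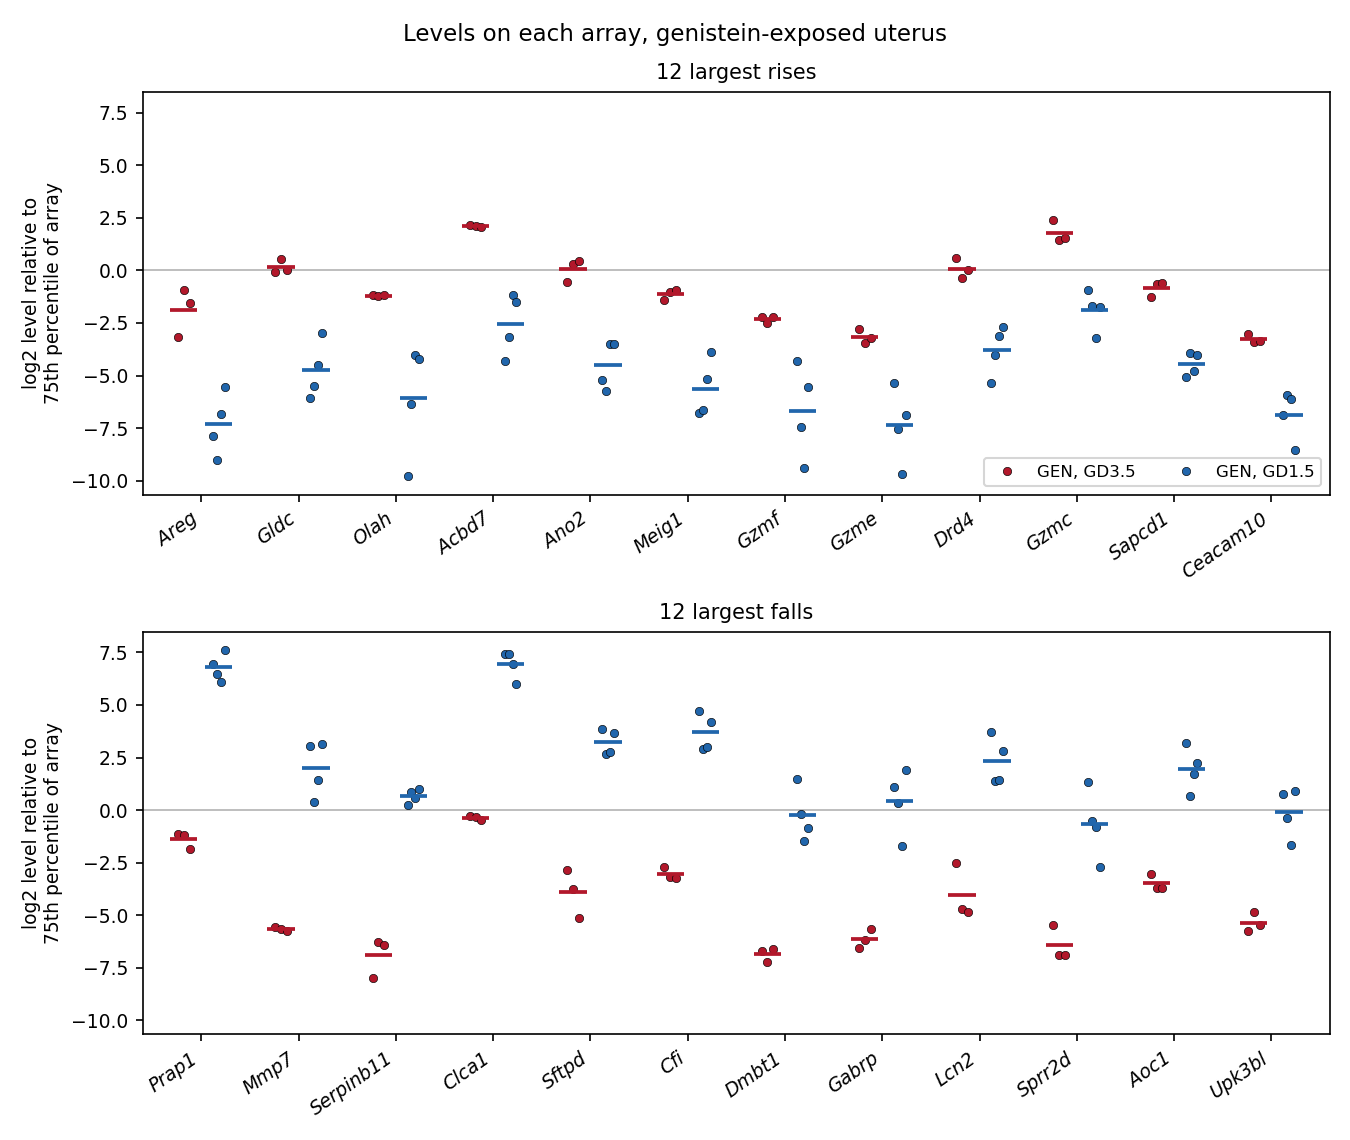
Log2 level of the 12 largest rises (top) and 12 largest falls (bottom) on each array, relative to the array's 75th percentile, with GEN at GD3.5 in red left of GEN at GD1.5 in blue and bars at the group means. For all 24 genes the arrays of the days do not overlap. Olah was within 0.1 on the GD3.5 arrays and spread over -9.79 to -4.02 on the GD1.5 arrays.

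Some genes left the range of the arrays by GD3.5. The probe of Spink12, a Kazal-type protease inhibitor, was not well above background on any GD3.5 array, and its level at GD1.5 was 1.25, -0.04, 1.13 and -3.58. Array 4 was lowest there and still far above the GD3.5 arrays, so its level was at least 126-fold lower at GD3.5. That bound sets the GD1.5 mean against the lowest signal that counts as above background on each GD3.5 array. By the same rule Etnppl, a phospholyase of phosphoethanolamine, was at least 36.9-fold lower, and Il1f6, the cytokine IL-36 alpha, at least 28.6-fold lower. A2ml1, a protease inhibitor of the alpha-2-macroglobulin family, was at least 23-fold lower (limma adjusted p = 2.16e-06).

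The estrogen-induced epithelial list had 20 genes, all measured, most of them secreted or channel proteins. Of these, 6 (30%) fell and 0 rose, beside 2.5% and 2.59% of all genes tested, and the list median was -1.31 beside 0.01. The 6 were Prap1, Lcn2, Aqp5, Cfb, Pigr and Muc1. Lcn2, lipocalin 2, which binds bacterial siderophores, stood at -2.52, -4.72 and -4.86 at GD3.5, against 3.73, 1.40, 1.45 and 2.82 at GD1.5. GD3.5 array 1 was the highest of its day and still below GD1.5. The change was -6.38 (SE 1.08, limma adjusted p = 0.000864), with -8.13 to -3.92 within slides.

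Aqp5, a water channel of the uterine lining, fell by 4.79 (SE 0.66, limma adjusted p = 0.000106), or 27.6-fold lower. It measured -3.65, -2.96 and -2.90 at GD3.5, against 1.90, 2.02, 1.01 and 1.55 at GD1.5. Both days were tight and well apart. Cfb, complement factor B of the alternative pathway, was at 3.12, 1.52 and 1.51 at GD3.5, against 7.05, 6.25, 6.17 and 6.54 at GD1.5, a change of -4.45 (SE 0.82, limma adjusted p = 0.00174). Pigr, which carries IgA across epithelium, fell by 3.78 (SE 0.78, limma adjusted p = 0.00488). Muc1, the surface mucin that limits embryo attachment, was at -4.25, -3.48 and -3.42 at GD3.5, against 0.29, -0.90, -2.16 and -0.93 at GD1.5. It was lower on every GD3.5 array, with a change of -2.79 (SE 0.41, limma adjusted p = 0.000178).

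Not all estrogen-phase genes passed the test. Ltf, lactoferrin, measured 2.38, 3.11 and 2.79 at GD3.5, against 7.41, 6.66, 6.65 and 7.28 at GD1.5. Its days did not overlap, yet its change of -4.23 had a standard error of 1.46 in the fit across all 29 arrays (limma adjusted p = 0.0963). C3, complement component 3, was at 6.96, 6.59 and 6.71 at GD3.5, against 7.81, 7.76, 7.57 and 7.68 at GD1.5. It was lower on each GD3.5 array by a small amount (log2 -0.95, SE 0.43, limma adjusted p = 0.228). A further probe of C3 had a change of -1.70, and C3 gained a call in 3 other fits. Aqp8 (-0.52) and Tff1 (-0.33) were also short of the threshold, and Greb1, an early target of estrogen receptor, had a change of 0.04 (SE 0.32).

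Markers of epithelium in general were followed beside these falls. Of 12 simple epithelium genes 1 (8.33%) was lower and 0 higher in limma, beside 2.5% and 2.59% of all genes tested, with a list median of -0.24. The keratins Krt8, Krt18 and Krt19 had changes of -0.23, 0.12 and -0.26. The summed linear level of the 12 genes was 139 to 148 times the 75th percentile at GD3.5, against 130 to 202 times at GD1.5, so the days overlapped. Fewer cells of a type and less RNA per cell cannot be told apart in whole uterus, and the part of epithelial amount in the falls above was not tested. Of 14 measured cornifying epithelium genes, Serpinb5 (log2 -3.27, limma adjusted p = 0.0102) and Sprr2g (-2.25, adjusted p = 0.0187) were lower, beside 2.5% of all genes tested. Serpinb5, maspin, lost its call without GD3.5 arrays 3 or 4 (up to 0.0568), and Sprr2g without GD1.5 array 1 or any GD3.5 array (up to 0.0871).

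Ion and water channels followed the same direction for 3 of 23 measured genes, beside 2.5% of all genes. Besides Clca1 and Aqp5, Cftr, the cAMP-gated chloride channel that drives secretion of uterine fluid, fell by 3.11 (SE 0.35, limma adjusted p = 1.15e-05). Cftr stood at -4.03, -4.46 and -4.67 at GD3.5, against -0.74, -1.86, -1.17 and -1.32 at GD1.5. All GD3.5 arrays were lower, and the CON change was -3.95. The epithelial sodium channel subunits, which absorb fluid, did not pass: Scnn1a had a change of -0.77, Scnn1b of 0.11 and Scnn1g of -1.63 (limma adjusted p = 0.0917 for Scnn1g, which was not well above background at GD3.5).

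Matrix proteases were a further group with falls: 5 of 21 measured genes (23.8%) were lower and 0 higher, beside 2.5% and 2.59% of all genes tested, and the list median was -0.58. Matrilysin, Mmp7, made by epithelium, was at -5.55, -5.64 and -5.75 at GD3.5, against 3.04, 0.38, 1.45 and 3.15 at GD1.5. It was 201-fold lower at GD3.5 (log2 -7.65, SE 0.90, limma adjusted p = 1.93e-05). The stromelysins Mmp10 and Mmp3, which cut proteoglycans and fibronectin, fell by 3.42 and 1.67 (limma adjusted p = 0.00233 and 0.0109), and Mmp11 by 2.14 (adjusted p = 0.00244). Mmp9, a gelatinase of leukocytes and other cells, fell by 1.27 (limma adjusted p = 0.04), with the call lost without GD1.5 arrays 1 to 3 or GD3.5 arrays 3 or 4 (up to 0.204). Mmp3 was at 0.94, 1.06 and 1.15 at GD3.5, against 2.98, 3.08, 3.08 and 1.76 at GD1.5, where array 4 was low. The call of Mmp3 was lost without GD3.5 array 3 (up to 0.0533). The inhibitors Timp1, Timp2 and Timp3 had changes of -0.58, -0.27 and 0.07, none past the test. Of collagens and other matrix genes 1 of 24 was called, beside 5.1% of all genes tested. It was the matricellular glycoprotein Tnc (-1.15, limma adjusted p = 0.0217, up to 0.122 without GD1.5 array 2 or any GD3.5 array).

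The promoters of Mmp7, Mmp10, Mmp3 and Sprr2d are shown because all 4 hold the binding sequence of AP-1, the Fos and Jun dimer, in capitals, and because these genes fell together. They are RefSeq windows of 300 bases on GRCm38.p6, which reach 250 bases before to 50 after the gene start, printed along the gene's strand. The windows lie at chr9:7691840-7692139 for Mmp7, chr9:7502092-7502391 for Mmp10, chr9:7445572-7445871 for Mmp3 and chr3:92338890-92339189 for Sprr2d, all on the plus strand.
Mmp7: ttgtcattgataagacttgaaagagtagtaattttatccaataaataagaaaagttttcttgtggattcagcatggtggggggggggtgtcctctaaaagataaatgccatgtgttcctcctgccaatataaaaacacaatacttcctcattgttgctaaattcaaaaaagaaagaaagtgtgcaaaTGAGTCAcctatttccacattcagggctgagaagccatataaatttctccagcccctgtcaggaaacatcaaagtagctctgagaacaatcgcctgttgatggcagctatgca
Mmp10: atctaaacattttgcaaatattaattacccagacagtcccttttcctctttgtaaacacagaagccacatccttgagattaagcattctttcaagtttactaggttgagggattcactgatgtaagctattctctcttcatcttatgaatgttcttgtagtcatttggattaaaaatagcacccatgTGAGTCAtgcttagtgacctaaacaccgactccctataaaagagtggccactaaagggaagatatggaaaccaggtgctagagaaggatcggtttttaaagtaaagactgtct
Mmp3: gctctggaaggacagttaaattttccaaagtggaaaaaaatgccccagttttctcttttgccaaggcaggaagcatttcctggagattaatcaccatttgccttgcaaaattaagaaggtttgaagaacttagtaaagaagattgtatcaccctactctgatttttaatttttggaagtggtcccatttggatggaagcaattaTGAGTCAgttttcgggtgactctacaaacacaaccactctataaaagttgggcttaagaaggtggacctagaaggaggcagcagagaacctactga
Sprr2d: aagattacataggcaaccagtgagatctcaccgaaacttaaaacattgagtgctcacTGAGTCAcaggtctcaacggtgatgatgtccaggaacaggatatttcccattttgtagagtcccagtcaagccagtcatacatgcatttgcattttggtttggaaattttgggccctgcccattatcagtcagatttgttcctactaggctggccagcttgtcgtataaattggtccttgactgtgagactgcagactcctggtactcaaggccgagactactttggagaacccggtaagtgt
The sequence begins 63 bases before the start in Mmp7 and Mmp10, 46 before it in Mmp3 and 193 before it in Sprr2d, and reads TGAGTCA in each.

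AP-1 was singled out after the shares of 12 motifs had been seen, so the shares are a description with no test. TGANTCA, searched on both strands, was in the window of 14.7% of 361 lower genes with a window and 5.92% of 355 higher genes, beside 7.02% of 12747 tested genes and 7.81% of all 32851 windows. The ETS sequence NGGAAGT was in 34.9% of lower and 21.7% of higher genes, beside 30.2% of tested genes and 23.7% of windows. The full palindromic estrogen response element was in 0% of both lower and higher genes and 0.0392% of tested genes. Its core, which every full element also holds, was in 0.554% of lower and 0.845% of higher genes, beside 0.533% of tested genes, and the progesterone response element was in 0% and 0.845%, beside 0.471%. CTTTGAT (TCF/LEF) was in 3.32% of lower and 2.25% of higher genes and TGTTTAC (FOXA) in 3.32% and 1.97%, beside 3.26% and 3.23% of tested genes. A loose NF-kB sequence was in 31.3% of lower and 33% of higher genes, beside 29.3% of tested genes. GACCACCCA (GLI), TTGCGCAA (C/EBP), the sterol response element and a strict NF-kB sequence, which the loose form also matches, were each in 0.282% or less of either. A match is not a bound site, and windows without one say nothing of a factor.

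The rises were led by Areg, amphiregulin, an EGF receptor ligand that progesterone induces in uterine epithelium. It stood at -3.16, -0.94 and -1.53 on the GD3.5 arrays, against -7.88, -9.00, -6.85 and -5.55 on the GD1.5 arrays, of which 2 were well above background. Every GD3.5 array was above every GD1.5 array, with a change of 5.44 (SE 1.26, limma adjusted p = 0.0114), 5.18 to 5.91 within slides and 6.03 in CON. Its call was lost without GD3.5 array 3 or 4 (up to 0.0829). Gldc, the decarboxylase of the glycine cleavage system, was at -0.09, 0.52 and 0.04 at GD3.5, against -6.05, -5.49, -4.51 and -2.96 at GD1.5. GD1.5 array 4 was the highest of its day, and the rise of 4.91 (SE 0.57, limma adjusted p = 1.66e-05) was 30.0-fold.

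Acbd7, an acyl-CoA binding protein, was at 2.17, 2.10 and 2.06 at GD3.5, against -4.30, -3.19, -1.16 and -1.51 at GD1.5. The GD3.5 arrays were close together and all above GD1.5, and the rise was 4.65 (SE 0.62, limma adjusted p = 6.96e-05). Olah, a thioesterase that ends fatty acid synthesis early, rose by 4.89, and Meig1, best known from male germ cells, by 4.51 (limma adjusted p = 0.00188 and 0.000244). Drd4, a dopamine receptor, rose by 3.88, and Sapcd1 by 3.63 (limma adjusted p = 0.00254 and 2.14e-05). Less firm were Ano2, a calcium-activated chloride channel (4.54, limma adjusted p = 0.0384), and Ceacam10, a small secreted member of the CEA family (3.60, adjusted p = 0.0347). Ano2 lost its call without GD1.5 arrays 1 or 2 or any GD3.5 array (up to 0.161), and Ceacam10 without GD1.5 arrays 1 or 4 or any GD3.5 array (up to 0.12).

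Rises from below background are lower bounds: at least 9-fold for Sox2ot, the non-coding transcript around Sox2, at least 4.51-fold for Mmd2, at least 4-fold for Cyp2j11, a fatty acid epoxygenase of the cytochrome P450 family, and at least 3.65-fold for Grid2ip. The bound of Cyp2j11 is that of the probe taken for the gene, and a further probe had a log2 change of 1.83. Sox2ot was at -6.02, -3.22 and -2.79 at GD3.5, with array 1 lowest (limma adjusted p = 0.0118). With normexp background correction Mmd2, Cyp2j11 and Grid2ip lost their calls (limma adjusted p = 0.242, 0.0963 and 0.254), and with the normexp refit they kept them.

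Of 18 progesterone-induced epithelial genes of the receptive phase, 3 rose and 1 fell, beside 2.59% and 2.5% of all genes tested, with a median of 0.64 beside 0.01. Il13ra2, the decoy receptor of interleukin 13, was at -0.46, -0.47 and -0.36 at GD3.5, against -3.81, -3.82, -3.24 and -1.08 at GD1.5. GD1.5 array 4 stood nearest to GD3.5, and the rise was 2.56 (SE 0.48, limma adjusted p = 0.00197). Lrp2, megalin, an endocytic receptor, rose by 2.89 (limma adjusted p = 0.0352), but lost its call without GD1.5 arrays 1 or 2 or any GD3.5 array (up to 0.131). The third was Areg, and Ptgs1, cyclooxygenase 1, fell by 1.02 (limma adjusted p = 0.0273, up to 0.142 without GD1.5 arrays 1 or 4 or any GD3.5 array).

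Other genes of this list did not pass the test, 10 with a positive and 4 with a negative change. Calca, calcitonin, was at -2.24, -0.28 and -0.56 at GD3.5, against -3.68, -4.73, -4.97 and -2.68 at GD1.5. The days did not overlap, with a change of 2.99 (SE 0.90, limma adjusted p = 0.0558). Fst, follistatin, the activin antagonist, measured -0.19, 0.73 and 0.64 at GD3.5, against -1.13, -1.78, -2.14 and 0.16 at GD1.5, overlapping through GD1.5 array 4 (log2 1.62, limma adjusted p = 0.08). Ihh, the epithelial hedgehog ligand, had a change of 0.78 (SE 0.57), and Hdc, which makes histamine, of 0.94 (SE 0.54). Cyp26a1, which clears retinoic acid, was at -1.83, -3.08 and -3.49 at GD3.5, against -3.54, -2.75, -1.51 and 0.29 at GD1.5, and its days overlapped (log2 -0.92, SE 0.71). Negative changes were also measured for Atp6v0d2, a subunit of the proton pump (-1.84, limma adjusted p = 0.0642), Sgk1, a kinase (-0.29), and Cited2, a transcriptional coregulator (-0.13). A further probe of Calca had a change of 1.16. Calca gained a call in 8 other fits, among them that with slide as a fixed block (limma adjusted p = 0.0455).

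In the hedgehog pathway a stromal receptor and an effector rose, while the ligand Ihh did not pass. Gli1, a transcription factor and target of the pathway, was at -0.90, -0.74 and -0.82 at GD3.5, against -2.57, -2.82, -1.75 and -1.47 at GD1.5. The groups were apart by 1.33 on average (SE 0.30, limma adjusted p = 0.0102). Ptch1, the receptor and also a target, rose by 1.52 (SE 0.39, limma adjusted p = 0.0226). Gli1 lost its call without GD3.5 array 3 or 4 (up to 0.0592), and Ptch1 without GD1.5 arrays 1 or 2 or any GD3.5 array (up to 0.116). In CON uteri the changes were 0.85 for Gli1 and 1.30 for Ptch1. In the list of 16 stromal progesterone and hedgehog targets 3 genes were higher, Gli1 and Ptch1 among them, beside 2.59% of all genes tested. Wnt4 and Sfrp4 were lower, beside 2.5% of all genes tested, and Bmp2 (0.56), Hand2 (0.28) and Nr2f2 (0.09) were not called.

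Wnt genes had a large share of calls, 9 of 21 measured (42.9%), beside 5.1% of all genes, with 7 lower and 2 higher. Lgr5, an R-spondin receptor and target of the pathway, was at -5.98, -5.87 and -5.92 at GD3.5, against -3.10, -3.36, -3.23 and -3.15 at GD1.5. Both days were very even, and the level fell by 2.71 (SE 0.52, limma adjusted p = 0.00283). Among ligands, Wnt7b fell by 2.56, Wnt4 by 1.95 and Wnt2 by 1.74 (limma adjusted p = 0.00639, 0.0193 and 2.14e-05), and Wnt11 rose by 1.65 (adjusted p = 0.0188). Sp5, a transcription factor that Wnt induces, fell by 2.07 (limma adjusted p = 0.00535), and the secreted inhibitor Sfrp4 by 1.35 (adjusted p = 0.0289). Of the receptors Fzd10 fell by 1.76 and Fzd6 rose by 0.86 (limma adjusted p = 0.0283 and 0.0325). Axin2, the usual readout of the pathway, had a change of 0.79 (SE 0.62, limma adjusted p = 0.56). Wnt4 lost its call without GD1.5 array 2 or GD3.5 arrays 3 or 4 (up to 0.0988), and Sfrp4 in all leave-out fits but that without GD1.5 array 3 (up to 0.115). Wnt11, Fzd10 and Fzd6 lost theirs without GD1.5 arrays 1 or 2 or any GD3.5 array (up to 0.151). Fzd6 also lost its call without GD1.5 array 3.

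Receptors of the ovarian steroids did not pass the test. Esr1, estrogen receptor alpha, was at 2.48, 2.45 and 2.45 at GD3.5, against 2.13, 2.12, 2.10 and 2.48 at GD1.5. The days overlapped through GD1.5 array 4, with a change of 0.25 (SE 0.18, limma adjusted p = 0.523). Pgr, progesterone receptor, was at -1.38, -1.27 and -1.42 at GD3.5, against -1.80, -1.68, -1.67 and -1.83 at GD1.5. It was higher on all GD3.5 arrays by a margin that the test did not pass (0.39, SE 0.19, limma adjusted p = 0.278). A further probe of Pgr had a change of 1.025, and Pgr gained a call in 3 other fits. Of 14 measured receptors and coregulators 1 was called, beside 5.1% of all genes tested. It was Pgrmc2 (0.36, limma adjusted p = 0.0305, up to 0.175 without GD1.5 arrays 1 or 2 or GD3.5 arrays 3 or 4).

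Growth factor genes showed scattered calls. Of 18 measured FGF and IGF genes 3 were higher, beside 2.59% of all genes tested. Fgf1 rose by 2.03, Igf2 by 1.01 and the receptor Fgfr4 by 0.92 (limma adjusted p = 0.0238, 0.023 and 0.0436). All 3 lost their calls without GD1.5 arrays 1 or 2 or GD3.5 arrays 3 or 4 (up to 0.208). Fgfr4 also lost its call without GD1.5 array 3 or GD3.5 array 1. In the LIF and EGF list Egfr rose by 0.64, and Nrg1 and Lifr fell by 1.19 and 1.09 (limma adjusted p = 0.025, 0.0159 and 0.0311). These too lost calls without GD1.5 array 1 or GD3.5 array 4, among others (up to 0.143), and further probes of Lifr and Fgfr4 had changes of 0.10 and -0.08. Igf1 and the ligands Hbegf, Btc and Ereg did not pass. Slc2a3, a high-affinity glucose transporter, was at 3.80, 3.18 and 3.03 at GD3.5, against 1.11, 0.55, 0.68 and 2.16 at GD1.5. It was higher on every GD3.5 array (2.21, SE 0.48, limma adjusted p = 0.00784). In glucose transport and glycolysis it was the 1 called gene of 19, beside 5.1% of all genes tested.

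**Figure D2:**
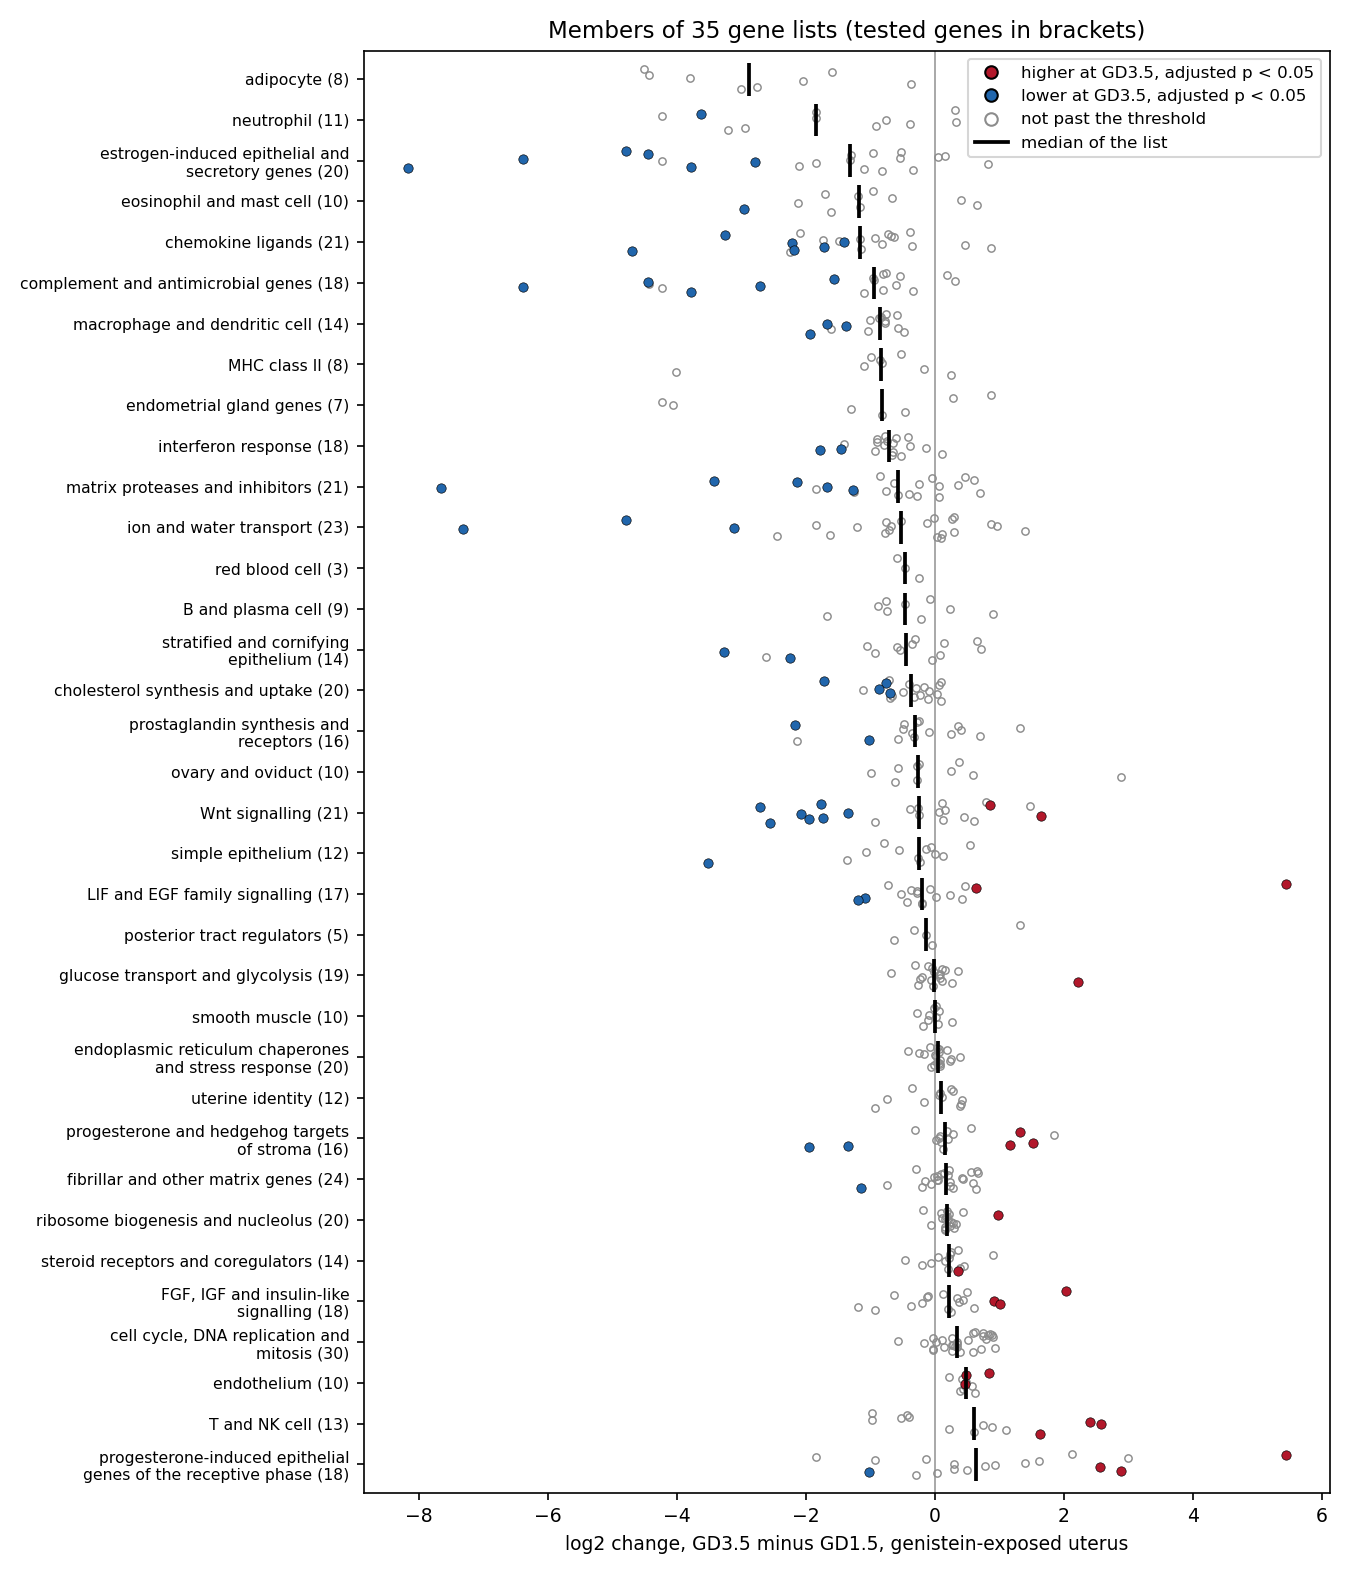
Log2 change (GD3.5 minus GD1.5, horizontal axis) of each measured member of the 35 gene lists, ordered by the list median (black line), with genes past the limma threshold filled red (higher) or blue (lower). The medians run from -2.88 in the adipocyte list to 0.64 in progesterone-induced epithelial genes, and the smooth muscle and chaperone lists, at -0.00 and 0.05, had 0 calls.

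Gland genes gave 0 calls of 7 measured in limma, 2 at an unadjusted p under 0.05, with a median of -0.82. Foxa2, the transcription factor of gland epithelium, was at -0.75, 0.74 and 0.92 at GD3.5, against 0.48, -1.16, 0.15 and 0.59 at GD1.5. The days overlapped through GD3.5 array 1, and in CON the means were 1.78 ± 0.07 at GD3.5 and 1.85 ± 0.17 at GD1.5 (SD, n = 3 each). The serine proteases Prss28 and Prss29, secreted by glands, were at -7.74, -7.05 and -7.57 and at -5.66, -5.30 and -5.98 at GD3.5, against -2.84, -2.87, -3.90 and -3.29 and -1.12, -1.25, -2.20 and -1.79 at GD1.5. Each was lower on all GD3.5 arrays, while 1 GD3.5 array was well above background for Prss28. Their changes of -4.23 and -4.06 had standard errors of 2.07 and 1.64 in the fit across all 29 arrays and did not pass (limma adjusted p = 0.276 and 0.169). Within the GEN days the SD was 0.36 and 0.50 for Prss28 and 0.34 and 0.50 for Prss29 (GD3.5 and GD1.5). On the CON GD1.5 arrays, which share that fit, it was 7.72 and 6.11. Each gene gained a call in 2 other fits. Spdef, a transcription factor of secretory epithelium, had a change of 0.50 (SE 0.42). Lif and Spink1 had no probe among the names used here, and Ttr was too dim to be tested.

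Proliferation genes gave 0 limma calls of 30, and 2 at an unadjusted p under 0.05, although 25 had a positive change and the list median was 0.35, beside 0.82 in CON. Mki67, which marks dividing cells, was at 2.09, 1.24 and 1.47 at GD3.5, against 0.43, 1.00, 0.41 and 0.81 at GD1.5. Its days did not overlap (0.94, SE 0.37, limma adjusted p = 0.163), and its change in CON was 1.51 (adjusted p = 0.0431). The difference between the exposures was -0.58 (SE 0.55, unadjusted p = 0.305). Myc rose by 0.98 (limma adjusted p = 0.0317), overlapping through GD1.5 array 4 at 2.31, and lost its call without GD1.5 arrays 1, 2 or 3 or GD3.5 arrays 3 or 4 (up to 0.15).

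Granzymes of lymphoid cells rose. Gzmb was at 1.56, 1.68 and 1.75 at GD3.5, against -0.13, -0.93, -2.18 and -0.41 at GD1.5, and Gzma at 1.19, 0.58 and 0.79, against -0.73, -0.82, -1.98 and -2.69. Both were higher on every GD3.5 array, by 2.57 (SE 0.54, limma adjusted p = 0.00551) and 2.41 (SE 0.54, adjusted p = 0.00888), and by 2.10 and 2.66 in CON. The pore protein Prf1 rose by 1.63 (limma adjusted p = 0.034), with calls lost in all leave-out fits but that without GD1.5 array 1 (up to 0.119). These were the 3 called members of 13 measured T and NK cell genes, beside 2.59% of all genes tested called higher. The T cell receptor genes Cd3d, Cd3e and Cd3g had changes of -0.97, -0.44 and -0.40, and the NK genes Ncr1 and Klrb1c of 1.11 and 0.89, none past the test. The summed linear level of the 13 genes was 11.95 to 15.2 times the 75th percentile at GD3.5, against 4.24 to 9.11 at GD1.5, and the part of NK cell number was not tested.

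The granzymes Gzmc, Gzme and Gzmf were among the 12 largest rises. Gzmc was at 2.38, 1.47 and 1.55 at GD3.5, against -0.92, -1.68, -3.21 and -1.75 at GD1.5. All GD3.5 arrays were higher (3.69, SE 0.67, limma adjusted p = 0.00156), 2.88 to 4.68 within slides, and the CON change was 0.92 (adjusted p = 0.67). Gzme rose by 4.21 and Gzmf by 4.36 (limma adjusted p = 0.0105 and 0.025), with 2 of 4 GD1.5 arrays well above background for each, and their CON changes were 0.32 and -0.17. The difference between exposures was 2.78 for Gzmc (SE 0.98), 3.89 for Gzme (SE 1.41) and 4.53 for Gzmf (SE 1.66), and none of the 3 passed the test (limma adjusted p = 0.9998 for each). Gzme lost its GEN call without GD3.5 array 4 (up to 0.0526) and Gzmf without GD1.5 arrays 2 or 3 or any GD3.5 array (up to 0.107). The genes are close copies in a cluster on chromosome 14, so a probe may read more than its own gene.

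Of 21 chemokine ligands measured 6 (28.6%) fell and 0 rose, beside 2.5% and 2.59% of all genes tested, with a median of -1.16 beside 0.13 for the same genes in CON. Cxcl5, which draws neutrophils through Cxcr2, was at -5.65, -7.43 and -7.68 at GD3.5, where 1 array was well above background, against -0.80, -2.89, -5.03 and -0.21 at GD1.5. The GD1.5 arrays were spread widely, with array 3 near the GD3.5 values. The level fell by 4.69 (SE 0.87, limma adjusted p = 0.00192), with changes of -7.18 to -2.40 within slides. In CON, Cxcl5 was at -3.68, -5.61 and -4.89 at GD3.5, against -5.95, -4.10 and -3.31 at GD1.5, which overlap. The difference between exposures was -4.42 (SE 1.28, unadjusted p = 0.00212, limma adjusted p = 0.9998).

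Cxcl1, with the same receptor, fell by 2.21 in GEN (SE 0.44, limma adjusted p = 0.00376), beside -0.13 in CON. Its difference between exposures was -2.08 (SE 0.65, unadjusted p = 0.00378, adjusted p = 0.9998). Ccl28, a mucosal chemokine for plasma cells, fell by 3.25, Cxcl17, of mucosal epithelium, by 2.19 and Cxcl14 by 1.72 (limma adjusted p = 0.000541, 0.00893 and 0.0134). These 3 were also lower in CON, at -1.75, -2.28 and -2.36. Ccl9 fell by 1.40 (limma adjusted p = 0.0447), beside 0.47 in CON. Cxcl17 lost its call without GD3.5 array 4 (up to 0.052), Cxcl14 without GD3.5 arrays 1 or 4 (up to 0.0609), and Ccl9 in all leave-out fits but that without GD1.5 array 4 (up to 0.196). With normexp background correction Cxcl1 and Ccl28 lost their calls (limma adjusted p = 0.298 for Cxcl1), and with the normexp refit they kept them. In a fit of the compared arrays alone Cxcl1 and Cxcl5 lost their calls (0.062 for Cxcl5).

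Markers of myeloid cells were measured beside them. Of 14 macrophage and dendritic cell genes all had a negative change and 3 passed the test, beside 2.5% of all genes tested called lower, with a median of -0.85, beside -0.39 in CON. Itgam, an integrin chain of myeloid cells, was at -2.25, -2.84 and -2.79 at GD3.5, against -0.88, -1.31 and -0.84 on GD1.5 arrays 1 to 3, with array 4 the lowest of its day and still above GD3.5. It fell by 1.37 (SE 0.35, limma adjusted p = 0.0219), and its CON change was 0.25. The scavenger receptor Msr1 fell by 1.93 and the Fc receptor Fcgr1 by 1.67 (limma adjusted p = 0.0188 and 0.0207). Each of these 3 lost its call without GD1.5 array 1 or GD3.5 arrays 3 or 4, among others (up to 0.153). The summed linear level of the list was 30.8 to 50.4 times the 75th percentile at GD3.5, against 58.6 to 81.1 times at GD1.5. The part of macrophage number in the chemokine change was not tested.

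Neutrophil genes varied between arrays of a day. Of 11 measured, 1 was called lower, beside 2.5% of all genes tested. It was the receptor Cxcr2, which fell by 3.63 (limma adjusted p = 0.0298), with the call lost without GD1.5 arrays 1 to 3 or GD3.5 arrays 3 or 4 (up to 0.205). Cxcr2 was at -3.15, -6.33 and -6.65 at GD3.5, against 0.00, -2.34, -1.63 and -3.02 at GD1.5. GD3.5 array 1 lay just below the lowest GD1.5 array. S100a8 and S100a9, the calprotectin subunits, had changes of -2.95 and -3.21 that did not pass (limma adjusted p = 0.22 and 0.153). Elane was too dim to be tested, and Ltf, which epithelium also makes, belongs to this list. The summed linear level of the 11 genes was 9.67 to 38.8 times the 75th percentile at GD3.5, against 129 to 270 times at GD1.5. Ltf, at log2 levels of 6.65 to 7.41 at GD1.5, made up most of that sum on every GD1.5 array. The list median relative to the GD1.5 mean was -0.17, -2.28 and -2.25 at GD3.5. On GD1.5 arrays 1 to 4 it was 1.46, -0.08, -0.01 and -1.14, so the days overlapped. The part of neutrophil number in the fall of Cxcl5 was not tested. The mast cell tryptase Tpsab1, not well above background on any GD3.5 array, was at least 2.02-fold lower (limma adjusted p = 0.0249, up to 0.108 without GD1.5 arrays 1 or 2 or any GD3.5 array). It was the 1 call among 10 eosinophil and mast cell genes, beside 5.1% of all genes tested.

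MHC class II and B cell genes gave 0 limma calls of 8 and of 9, with 2 and 0 at an unadjusted p under 0.05. The MHC class II median was -0.84, beside 0.02 in CON, and the GD1.5 arrays themselves ran from -0.98 on array 4 to 0.88 on array 2. Interferon response genes had 17 negative changes of 18 and 2 calls, beside 2.5% of all genes tested called lower. These were Oas2 (-1.78, limma adjusted p = 0.0431) and Oas1a (-1.46, adjusted p = 0.0402). Both were lost without GD1.5 arrays 1, 2 or 4 or GD3.5 arrays 3 or 4 (up to 0.262), and GD3.5 array 1 was the highest of its day for each.

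In the complement and antimicrobial list 5 of 18 measured genes fell and 0 rose, beside 2.5% and 2.59% of all genes tested, and the list median was -0.95. Hc, complement C5, was at -2.80, -2.52 and -2.54 at GD3.5, against 0.10, -0.02, 1.66 and -1.37 at GD1.5. All GD3.5 arrays were lower (log2 -2.71, SE 0.40, limma adjusted p = 0.000203). C4b, of the classical pathway, fell by 1.57 (limma adjusted p = 0.04998), beside -0.49 in CON, and lost its call without GD1.5 arrays 1 to 3 or GD3.5 arrays 3 or 4 (up to 0.243). The other 3 were Lcn2, Cfb and Pigr, which also stand in the estrogen list. The C1q genes C1qa and C1qb had changes of -0.76 and -0.81, not past the test.

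**Figure D3:**
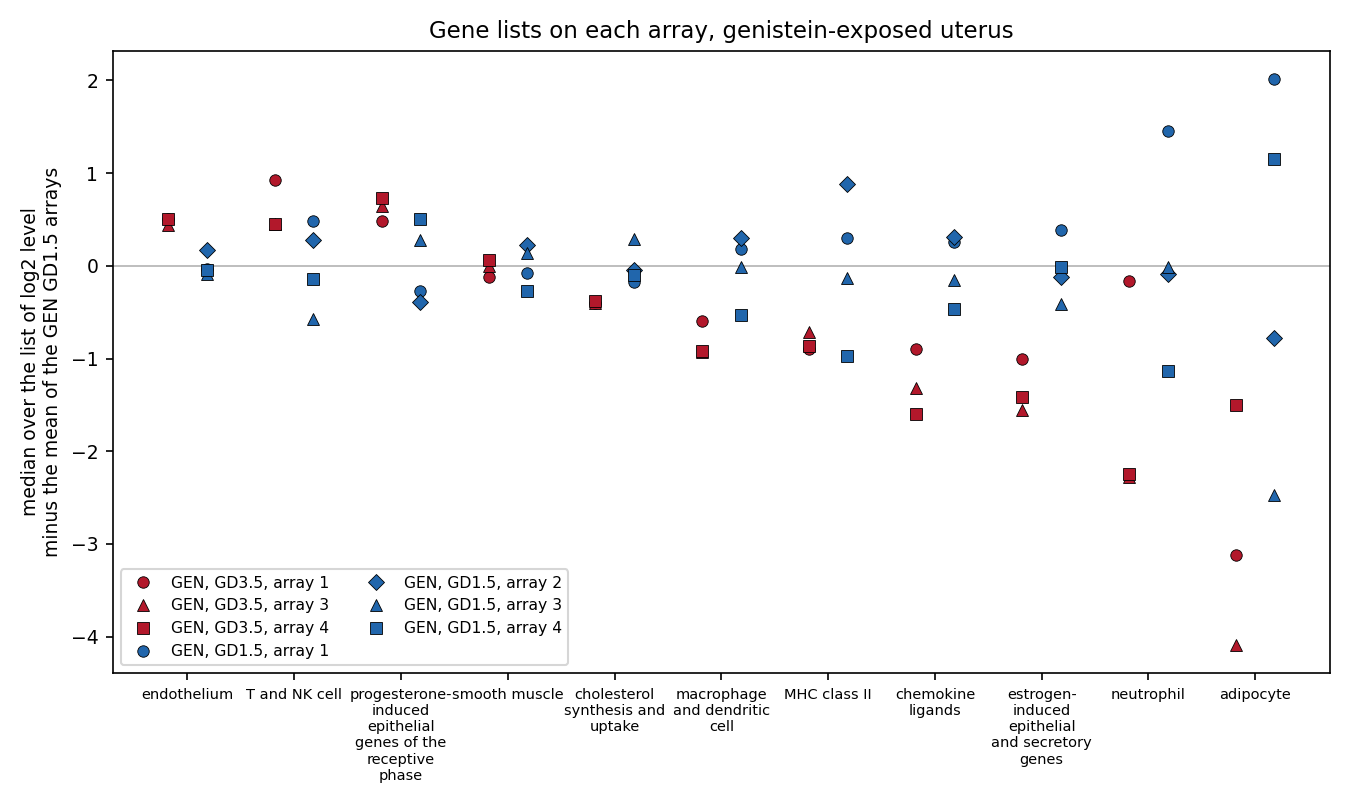
Median over each of 11 gene lists of the log2 level minus the mean of the GEN GD1.5 arrays (vertical axis), for each GEN array, with GD3.5 in red left of GD1.5 in blue and a marker shape for each array number. The endothelium and estrogen-induced lists separate the days, while the adipocyte list spreads from -2.47 to 2.01 over the GD1.5 arrays alone.

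Fat cell genes gave 0 limma calls of 8, with 5 at an unadjusted p under 0.05, and their median change of -2.88, the lowest of the 35 lists, rested on uneven GD1.5 arrays. The list stood at -3.12, -4.09 and -1.50 on the GD3.5 arrays, against 2.01, -0.77, -2.47 and 1.16 on the GD1.5 arrays, so the days overlapped. The summed linear level of Adipoq, Cfd, Cidec and the other 5 measured members was 1.59 to 3.9 times the 75th percentile at GD3.5, against 44.8, 7.54, 2.83 and 26.8 times on GD1.5 arrays 1 to 4. In CON the list median was -0.06. The arrays with much fat cell signal, GD1.5 arrays 1 and 4, thus stand on the GD1.5 side of each comparison above, and the part of fat tissue in other falls was not tested. For Cxcl5 the level was also highest on those arrays, at -0.80 and -0.21. The chemokine list median, relative to the GD1.5 mean, was 0.25, 0.31, -0.16 and -0.47 on GD1.5 arrays 1 to 4. For macrophage and dendritic cell genes it was 0.18, 0.30, -0.01 and -0.53, so both lists were lowest on array 4.

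Endothelial genes differed little among arrays of a day. All 10 had a positive change and 3 passed the test, beside 2.59% of all genes tested called higher, and the median was 0.48, beside 0.42 in CON. Cdh5, the cadherin of endothelial junctions, was at 1.48, 1.54 and 1.70 at GD3.5, against 0.70, 0.74, 0.51 and 0.95 at GD1.5. It rose by 0.85 (SE 0.23, limma adjusted p = 0.031), Emcn by 0.48 (adjusted p = 0.0227) and the VEGF receptor Kdr by 0.47 (adjusted p = 0.0325). Each lost its call without GD1.5 array 1 or any GD3.5 array, among others (up to 0.157). Smooth muscle genes gave 0 limma calls of 10, 0 at an unadjusted p under 0.05, and a median of -0.00.

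Cholesterol genes fell in 4 of 20, beside 2.5% of all genes. The list median was -0.36, beside 0.02 in CON. Fdft1, squalene synthase, fell by 0.75 and Mvd, a decarboxylase of the mevalonate steps, by 0.70 (limma adjusted p = 0.0302 and 0.0256). Insig1, which restrains the pathway, fell by 0.87 (limma adjusted p = 0.0434), beside 0.12 in CON. Fdft1, Mvd and Insig1 lost their calls without GD1.5 arrays 2 or 3 or GD3.5 arrays 3 or 4 (up to 0.254). In prostaglandin synthesis 2 of 16 fell, beside 2.5% of all genes tested. They were Ptgs1 and Ptgds (-2.17, limma adjusted p = 0.0212, up to 0.0966 without GD1.5 array 3 or any GD3.5 array), while Ptgs2 had a change of -2.14 with a standard error of 0.86 (adjusted p = 0.164).

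The change in GEN was set against that in CON, which uses other arrays throughout. Across 20233 genes tested in both, the changes correlated at r = 0.72 (rho = 0.61), a description in which genes are not independent and slides are shared. Of 1024 genes called in GEN and tested in CON, 999 had the same sign there. Of the GEN calls 337 (32.4%) were also called in CON, and these were 64.4% of the 523 CON calls, themselves 2.54% of genes tested in CON (1.15% higher and 1.39% lower). The CON change rested on 6 arrays, the GEN change on 7, so a call in GEN alone does not show a difference.

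The difference of the changes was tested for 21061 genes, and limma found 0 at an adjusted p under 0.05 (0%), with 509 (2.42%) at an unadjusted p under 0.05. The median standard error of that difference was 0.34. The count was 1 without GD1.5 GEN array 3, where Hcar2, a receptor for hydroxybutyrate, fell more in GEN (log2 -3.96, SE 0.59, adjusted p = 0.0211). It was 1 without GD3.5 GEN array 1, where Fastkd1, a mitochondrial RNA-binding protein, fell more (-1.29, SE 0.19, adjusted p = 0.0231). These genes were named after their values were seen. Aqp5 fell by 4.79 in GEN and 4.10 in CON, a difference of -0.69 (SE 0.97, unadjusted p = 0.487), with GEN means of -3.17 and 1.62 at GD3.5 and GD1.5 and CON means of -0.57 and 3.53.

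**Figure D4:**
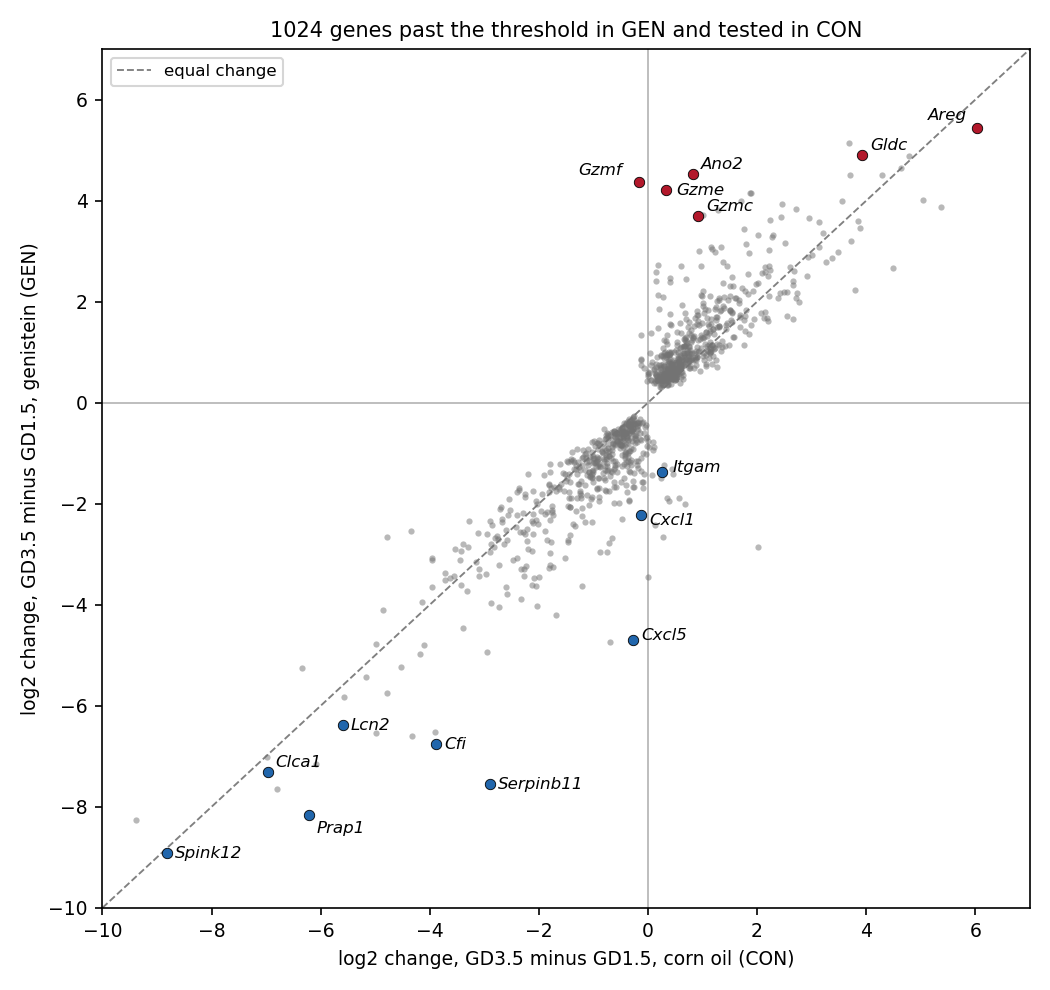
Log2 change (GD3.5 minus GD1.5) in GEN (vertical axis) against that in CON (horizontal axis) for the 1024 genes past the threshold in GEN and tested in CON, with 15 genes marked as examples and a dashed line at equal change. Of these genes 999 have the same sign in both, while Cxcl5, Cxcl1, Gzme and Gzmf lie near 0 in CON.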

How the data were processed

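Total RNA of each uterus sample was labelled with Cy3 and hybridised to an Agilent array, 1 sample an array, and read with Feature Extraction 9.5, per the submitters' processing notes. The deposited values are processed signal intensities, background-corrected per the file headers, with flags for outlier, saturated and dim spots. From these, log2 intensity was taken, less each array's 75th percentile over non-control spots. Outlier spots were left out, replicate spots averaged, and the probe with the highest mean taken for a gene. Names came from the files' accessions (22951 probes), symbols (6659) or synonyms (3109) through RefSeq, and otherwise from the file (8455). Genes well above background on 3 or more of the arrays compared were tested with limma 3.58.1 in R 4.3.3, as contrasts of group means fitted to all 29 arrays, with Benjamini-Hochberg adjustment over all genes tested and a call at 0.05. All log2 changes are GD3.5 minus GD1.5.

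Genes named are the 12 largest rises and falls with proper symbols and no overlap, up to 4 bounds each way, 22 key genes of early pregnancy (21 measured) and up to 4 called members of each list, with uncalled members given by value. Wnt2, Wnt11, Fzd10, Fzd6, Cxcl14, Ccl9, C4b and Mmp9, where beyond that rule, were named after their values were seen. Some members that the rule names are not reported here. The comparison, lists and rules were chosen with earlier results of these data known. Deviations of same-numbered arrays correlated at -0.00, 0.14 and 0.18, so replicate numbers were not taken to pair the samples. For GD3.5 arrays 1, 3 and 4 the correlation with a GD1.5 array of the same slide reached 0.26, 0.14 and 0.18, and slide was tried as a block.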

Additional observations from a re-analysis of the deposited data

Results flagged for a closer look

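Among 103 named genes and 35 lists, 6 had 1 of the 4 GD1.5 GEN arrays far from the others, judged by Dixon's test of the gap over the range, a finding that chance gives in about 1 of 20 groups. Array 4 stood apart for Esr1, at 2.48 against 2.10 to 2.13 on the other arrays, for Myc, at 2.31 against 0.81 to 1.04, and for Mmp3, at 1.76 against 2.98 to 3.08. It also stood apart for the uterine identity list, whose median was 0.24 there and -0.09 to -0.04 on the others. Array 3 stood apart for Etnppl, at -4.38 against -1.47 to -1.13, and for Lifr, at -1.58 against -0.76 to -0.62.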

How the results depend on the processing

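Counts of GEN calls, 1039 with 529 higher and 510 lower, were 513 (260 and 253) with normexp background correction, 591 (268 and 323) with a replicate block, 606 (271 and 335) at 2-fold or more, 1657 (873 and 784) from the compared arrays alone, 1819 (958 and 861) from the 13 arrays of these days and 5966 (3142 and 2824) with array weights. Leaving out 1 array gave 356 to 1229 (154 to 648 higher, 202 to 581 lower). Normexp refitted without spots of high local background, chosen after seeing the data, gave 1252, and the other 8 settings 873 to 1145. The difference between exposures, with 0 calls, had 1 from the compared arrays alone (Masp2, -2.92, more negative in GEN), 80 with array weights (25 and 55) and 0 to 1 with 1 array left out. Among the 80 were Gzmc (3.37), Serpinb11 (-3.75), Itgam (-1.78) and Cxcl1 (-2.47), at limma adjusted p of 0.0344 to 0.0493. CON calls without GD3.5 array 3 were 160 (68 and 92). With 1 array left out Foxa2 ran up to 0.82 and Spdef up to 0.99. Foxa2 turned to -0.10 with the replicate block, -0.10 without GD1.5 array 2 and -0.02 without GD3.5 array 4, and Spdef to -0.0095 in the first of these and without GD1.5 array 2. For named genes 1816 results stayed on their side of the threshold, 285 lost and 27 gained a call and 5 reversed. The cause was not tested. Few arrays limit precision, and dim probes give bounds only.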

Other observations

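Among the 12 largest rises, Acbd7, Olah and Meig1 lie near each other on chromosome 2, which was noticed after their values were seen. They rose by 4.65, 4.89 and 4.51 in GEN uteri and by 4.64, 4.79 and 3.70 in CON uteri. In the RefSeq order the genes on either side are Rpp38 and Dclre1c. Rpp38 had a log2 change of 0.20 (limma adjusted p = 0.596) and Dclre1c of 0.16 (limma adjusted p = 0.729), neither past the test.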
